A study of Mus musculus with 58 samples.

Results

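The mitochondrial ribosomal protein genes are the nuclear genes that encode the proteins of the ribosome inside mitochondria. Members were taken by symbol, as Mrpl or Mrps followed by a digit and without pseudogenes, and had to be present in every count table of the series. This gave 78 of the 18350 genes found in all tables. Of these Mrp genes 51 encode proteins of the large subunit and 26 of the small subunit. The remaining gene, Mrps36, carries the name but encodes a protein of the 2-oxoglutarate dehydrogenase complex rather than of the ribosome, and 5 pseudogenes with Mrp symbols were left out. The 79 cytosolic ribosomal protein genes served as the reference.

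The data come from the striatum of adult mice of 2 lines, all labelled strain B6129S, each with heterozygous mutants (del/+) and wildtype (wt) littermates. Mice of the 16p11.2 line were purchased and carry the hemideletion that models the human 16p11.2 deletion, and mice of the 3g line were made with CRISPR/Cas9 and carry premature stop mutations in 1 copy each of Taok2, Sez6l2 and Mvp, 3 genes of that region. RNA-seq was performed on 32 libraries, with 4 males and 4 females per genotype in each line, and the wt groups carry neither change. From striatal lysates of other, male mice, ribosome footprints and lysate RNA were sequenced in 3 del/+ and 3 wt animals of the 3g line and in 3 del/+ and 4 wt animals of the 16p11.2 line, and an animal is called by its number in the labels (RIBO-318 and RNA-318 come from 1 animal). The number of 3g founders was not given in the sources used here, so that line may rest on 1 set of edited alleles. For the males that sired the 3g embryos, the study's methods name a strain other than B6129S. Whether the wt mice of the lines share a genetic background was not tested.

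The mitochondrial ribosome makes the small set of respiratory chain proteins encoded in mitochondrial DNA, while its own ribosomal RNAs are transcribed inside the organelle. All of its proteins are encoded in the nucleus, made by cytosolic ribosomes and imported, so the number of these ribosomes depends on gene expression in both compartments. Some of its proteins descend from the bacterial ribosome, whereas others exist in mitochondria alone. Neurons of the striatum, like other neurons, rely heavily on mitochondrial respiration, and mutations in several of these genes cause inherited respiratory chain disease.

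The members lay on 17 chromosomes, with 11 on chromosome 11, by RefSeq on GRCm38.p6. Chromosome 7, which carries the deleted region, held 6 of them. The nearest to Taok2 (chr7:126865674-126886296) was Mrpl23 at 15.7 Mb, followed by Mrpl17 at 21.1 Mb, Mrpl48 at 26.3 Mb, the neighbours Mrpl46 and Mrps11 at 48.1 Mb, and Mrps12 at 98.1 Mb. None of them lay in the deleted region, so no member lost a copy in either line. Mrpl46 ended at position 78783089 and Mrps11 began at 78783131, so these genes share a start region, and reads of Mrps36, Mrpl23 and Mrpl48, which have annotated pseudogene copies, could have been split by the counting.

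Promoters of these genes are known for short, GC-rich motifs near the start site, and 3 of them are shown because they held 2 kinds of such motifs. The motifs searched on both strands, in windows of 250 bases before to 50 after each RefSeq start, were CCGGAAGT (the ETS factor GABPA), GCGCATGC (the core of the NRF1 site, which overlaps itself in the palindrome) and AAGATGGC (YY1). Capitals mark them in the windows of Mrpl32 (chr13:14613008-14613287, minus strand), Mrpl33 (chr5:31613701-31613980, plus strand) and Mrps27 (chr13:99344536-99344815, plus strand), printed 5′ to 3′ from RefSeq on GRCm38.p6 as 280 bases that end 30 bases into the gene.
Mrpl32: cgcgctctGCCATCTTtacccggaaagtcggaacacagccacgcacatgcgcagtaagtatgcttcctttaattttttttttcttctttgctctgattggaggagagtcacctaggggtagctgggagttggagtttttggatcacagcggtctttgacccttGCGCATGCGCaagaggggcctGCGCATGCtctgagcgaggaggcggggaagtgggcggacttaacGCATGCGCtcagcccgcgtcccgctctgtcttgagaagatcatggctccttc
Mrpl33: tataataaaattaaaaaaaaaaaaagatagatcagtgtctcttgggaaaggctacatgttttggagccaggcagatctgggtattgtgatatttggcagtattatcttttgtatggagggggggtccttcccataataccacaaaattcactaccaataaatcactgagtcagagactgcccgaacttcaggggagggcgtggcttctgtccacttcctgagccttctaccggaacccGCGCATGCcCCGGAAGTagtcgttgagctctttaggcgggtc
Mrps27: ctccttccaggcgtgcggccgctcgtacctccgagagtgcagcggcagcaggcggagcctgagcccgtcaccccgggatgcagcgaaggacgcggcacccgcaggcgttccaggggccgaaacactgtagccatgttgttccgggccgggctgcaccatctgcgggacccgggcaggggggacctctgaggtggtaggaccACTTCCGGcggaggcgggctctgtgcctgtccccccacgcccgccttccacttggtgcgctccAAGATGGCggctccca
Of the members, 69 had a window, and they had 75 windows in all. At least 1 of the 3 motifs was present in 29 of the 75 windows (38.7%), against 8.83% of the 32851 windows of all genes and 32.4% of the 68 windows of cytosolic ribosomal protein genes. CCGGAAGT was in 16% of the Mrp windows (3.89% of all), AAGATGGC in 16% (2.75% of all) and GCGCATGC in 10.7% (2.71% of all). Beside these shares the cytosolic genes held the first at 16.2%, the second at 11.8% and the third at 4.41%. A match describes letters in a window and is not evidence of binding.

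The RNA-seq libraries had total counts between 11711099 and 65529807, the lysate RNA libraries between 15102576 and 19122488 and the footprint libraries between 342052 and 678130. Counts over the Mrp genes summed to 20740 to 118456 in RNA-seq, 14385 to 20172 in lysate RNA and 457 to 1094 in footprints, where the median member had 4 to 13 counts. In the RNA-seq libraries Sez6l2 was at 182 to 225 CPM (counts scaled to the library total after TMM normalization) in 3g del/+ and 273 to 339 in 3g wt, while the groups overlapped for Mvp (4.98 to 7.46 and 7.26 to 9.02) and for Taok2 (151 to 198 and 177 to 181). In the 16p11.2 line Sez6l2 was at 125 to 162 CPM in del/+ and 288 to 400 in wt, and Taok2 at 82.8 to 95.4 and 153 to 195. By Sez6l2 no RNA-seq library went against its genotype label, and Mvp and Taok2 do not tell the 3g genotypes apart in each library. Markers of striatal projection neurons such as Ppp1r1b, Drd1 and Penk summed to 4535 to 6453 CPM over the wt RNA-seq libraries. Some libraries stood apart. On a scale built from 11247 genes that differed between the lines, with 0 at the wt females of 3g and 1 at those of 16p11.2, 3g wt male 17 lay at 0.836 and 16p11.2 del/+ male 4 at 0.217, while the other 3g libraries reached 0.177 at most and the other 16p11.2 libraries started at 0.806. Against its sex label, 16p11.2 del/+ female 1 gave Ddx3y, which lies on the Y chromosome, at 38.6 CPM and Xist at 0.463 CPM. Medians and most named genes of the comparisons within RNA-seq that hold these 3 libraries are given with and without them. For the line difference between data sets only the count of members called is given without 3g wt male 17.

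In RNA-seq the Mrp genes took 0.172% to 0.22% of the counts of a library. Each library was placed by the median, over the members, of its log2 CPM minus the mean of the wt libraries of both lines. All 3g libraries but 1 lay between -0.318 and -0.156, and 3g wt male 17 lay at 0.23. All 16p11.2 libraries but 1 lay between 0.05 and 0.283, and 16p11.2 del/+ male 4 lay at -0.292. Apart from these 2 libraries the lines did not overlap, and within each line del/+ and wt libraries did. In lysate RNA all 13 libraries lay between -0.0356 and 0.106, with the lines next to each other.

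**Figure D1:**
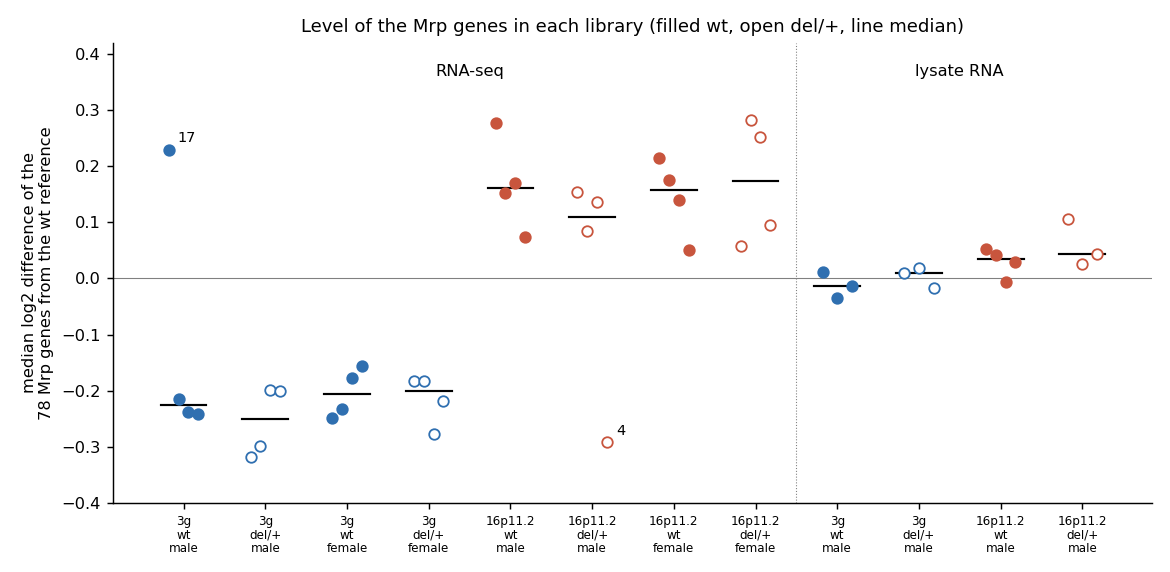
The level of the Mrp genes in each RNA-seq and lysate RNA library, as the median log2 difference of the members from the wt reference, with filled points for wt, open points for del/+ and a line at each group's median. The 3g RNA-seq libraries sit below 0 except wt male 17 at 0.23, the 16p11.2 ones above 0 except del/+ male 4 at -0.292, and the lysate RNA libraries of both lines lie close to 0.

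The first comparison asked how the Mrp genes differed between the wt mice of the lines, 8 libraries each, with sex as a covariate. Most Mrp genes had higher RNA-seq levels in 16p11.2 wt than in 3g wt. Of 77 members tested (Mrpl53 had no counts in 31 of 32 libraries), 60 were called higher in 16p11.2 and 4 lower at an adjusted p under 0.05 by edgeR's quasi-likelihood test. The background was high, since 62.5% of all 19156 genes tested were called, 30.9% higher and 31.6% lower. The median log2 fold change was 0.32 over the members, -0.00 over all genes and 0.54 over the cytosolic ribosomal protein genes, of which 74 of 79 were called higher and 2 lower. The line is the same as the set of libraries in these data, so the line and anything else that differed between the sets cannot be told apart. In tissue RNA, a smaller number of cells of a type and less RNA per cell cannot be told apart either, and the p-values measure the spread between the libraries of a group.

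Mrpl13 (ENSMUSG00000022370, chr15:55534095-55557312), whose protein is the large subunit's uL13, had the largest difference. Its CPM had a lowest, median and highest value of 16.2, 17.7 and 27.8 in 3g wt and of 27.99, 33.2 and 34.6 in 16p11.2 wt. Every 16p11.2 wt library was thus above every 3g wt library, the highest of which was male 17. The means were 18.7 ± 3.78 (SD, n = 8) and 31.98 ± 2.51 (SD, n = 8), and the log2 fold change was 0.77 (SE 0.092, edgeR adjusted p = 4.86e-05). The 2-sided exact permutation test gave p = 0.000155, the smallest that 8 against 8 libraries allow.

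Mrps34 (ENSMUSG00000038880, chr17:24895120-24896289), a small subunit protein found in mitochondria alone, had values of 1.89, 2.47 and 4.63 CPM in 3g wt and of 3.40, 3.91 and 5.06 in 16p11.2 wt. Its groups overlapped through 3g wt male 17, and its log2 fold change was 0.63 (SE 0.143, edgeR adjusted p = 0.0012). Mrpl30 (ENSMUSG00000026087, chr1:37890477-37898338), which encodes uL30, ranged over 28.8, 31.6 and 48.7 CPM in 3g wt and 43.8, 51.3 and 57.1 in 16p11.2 wt, with a log2 fold change of 0.62 (SE 0.090, edgeR adjusted p = 6.57e-05). Mrpl12 (ENSMUSG00000039640, chr11:120484637-120488754) encodes the stalk protein that recruits translation factors and is also known to bind the mitochondrial RNA polymerase. It ranged over 23.1, 25.1 and 45.8 CPM in 3g wt and over 35.5, 38.6 and 47.7 in 16p11.2 wt, with a log2 fold change of 0.55 (SE 0.115, edgeR adjusted p = 0.000655). In all of these genes the highest 3g wt value was that of male 17, and without it the log2 fold changes were 0.87 for Mrpl13, 0.77 for Mrps34, 0.71 for Mrpl30 and 0.68 for Mrpl12, all still called.

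Both subunits were higher in 16p11.2 wt. In the small subunit 19 of 26 members were called higher and 2 lower (median log2 fold change 0.28), and in the large subunit 40 of 50 higher and 2 lower (median 0.33). Of the members with a bacterial homolog 33 of 46 were called higher, and of those found in mitochondria alone 26 of 30. Around the decoding centre of the small subunit, Mrps12 (uS12) differed by 0.25 on the log2 scale (adjusted p = 0.0225) and Mrps7 (uS7, in the head) by 0.49 (adjusted p = 9.41e-05), whereas Mrps2 (uS2) differed by 0.09 (adjusted p = 0.16). Mrps35, which is found in mitochondria alone, differed by 0.26 (adjusted p = 0.0036).

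In the large subunit Mrpl11, at the base of the stalk next to Mrpl12, differed by 0.42 on the log2 scale (adjusted p = 0.00014), and Mrpl3 (uL3), one of the oldest proteins of the core, by 0.08 (adjusted p = 0.117). Mrpl45, which sits at the exit tunnel and ties the ribosome to the inner membrane, differed by 0.29 (adjusted p = 0.000205), and Mrpl41 by 0.23 (adjusted p = 0.00814). Mrpl58, the peptidyl-tRNA hydrolase that became part of the ribosome and rescues stalled ones, differed by 0.38 (adjusted p = 0.000412). Mrps30, which in spite of its symbol is a large subunit protein, differed by 0.23 (adjusted p = 0.00314). Mrps36, the member outside the ribosome, differed by 0.36 (adjusted p = 0.00248). The 3 paralogs of bacterial S18 differed from each other in direction, with log2 fold changes of 0.51 for Mrps18c, 0.29 for Mrps18a and -0.19 for Mrps18b. Of the members named so far each kept its direction and its side of the threshold without 3g wt male 17, except Mrps18c, for which this was not computed.

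The 4 members called lower in 16p11.2 wt were Mrps5, Mrpl24, Mrpl37 and Mrps18b. Mrps5 (ENSMUSG00000027374, chr2:127587426-127603986), the homolog of bacterial S5, which helps to keep decoding accurate, had a lowest, median and highest value of 35.9, 40.8 and 41.6 CPM in 3g wt and of 30.9, 33.7 and 36.3 in 16p11.2 wt, with 1 stretch of overlap at the 3g minimum. Its log2 fold change was -0.25 (SE 0.048, edgeR adjusted p = 0.000328). Mrpl24 (ENSMUSG00000019710, chr3:87918131-87923450), the homolog of bacterial L24, had values of 26.3, 27.8 and 29.5 CPM in 3g wt and of 20.2, 24.8 and 25.9 in 16p11.2 wt, and was lower in every 16p11.2 library (log2 fold change -0.22, SE 0.053, edgeR adjusted p = 0.00199). Mrpl37, of the large subunit, differed by -0.21 (SE 0.061, edgeR adjusted p = 0.00614) and Mrps18b, of the small subunit, by -0.19 (SE 0.075, edgeR adjusted p = 0.0332). Without 3g wt male 17 these 4 differed by -0.28, -0.23, -0.23 and -0.18 in this order and were still called.

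**Figure D2:**
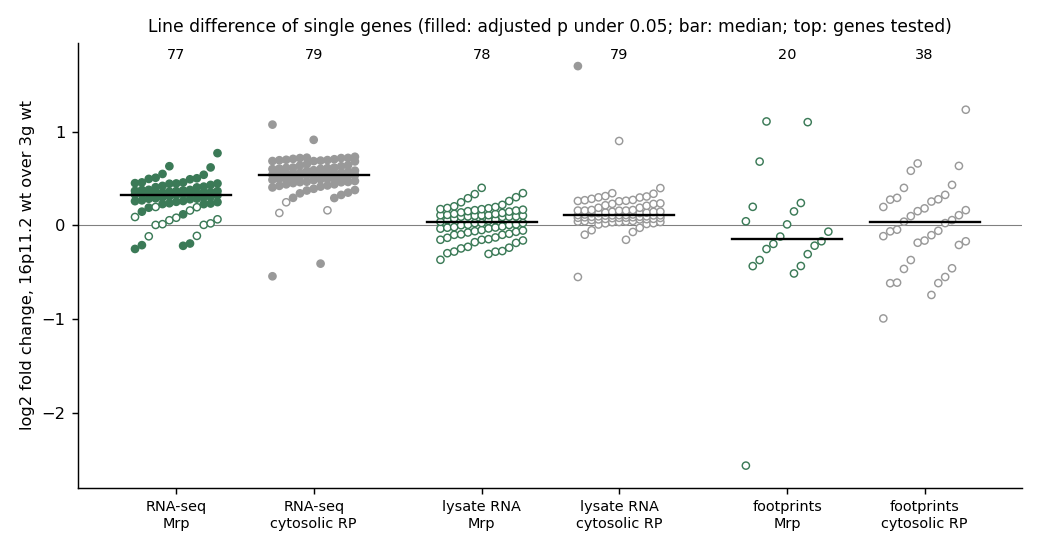
Log2 fold change of single genes between 16p11.2 wt and 3g wt in RNA-seq, lysate RNA and footprints, for the Mrp genes and the cytosolic ribosomal protein genes; filled points passed an adjusted p under 0.05, bars are medians and the numbers at the top are the genes tested. In RNA-seq the Mrp genes sit mostly above 0 (median 0.32) and the cytosolic ones further up (median 0.54), while in lysate RNA both lie near 0 (medians 0.03 and 0.11) and in footprints the Mrp gene furthest down is Mrpl40 at -2.56.

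The libraries of the lines did not overlap in 2 members that were higher in 16p11.2, Mrpl13 and Mrps27 (a pentatricopeptide repeat protein of the small subunit, with the promoter printed above), and in 1 that was lower, Mrpl24. The share of all genes that were higher in every 16p11.2 library was 1.63%, and 1.65% were lower in every one. Without 3g wt male 17, 57 of 77 members were higher in every 16p11.2 library and 2 lower, against 19% of all genes higher and 18.9% lower. Leaving that library out of the fit gave 63 members called higher and 4 lower, with a median of 0.38. In females alone 60 were called higher and 3 lower, with a median of 0.36. In males alone no member passed by edgeR, with 31 at an unadjusted p under 0.05 and a median of 0.27, where only 3 of 18561 genes were called at all. Males without number 17 gave 59 members called higher and 1 lower, with a median of 0.41, and 46.3% of all genes called. DESeq2 called 65 members in the fit of all wt libraries. The shares of all genes called by DESeq2, in females alone and in both sexes without male 17 are not given here.

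Genes that serve the mitochondrial ribosome in other ways are read against the 30.9% of all genes called higher and 31.6% called lower. Of 5 ribosome proteins under other symbols 3 were called higher in 16p11.2 wt (median log2 fold change 0.26). Both mitochondrial ribosomal RNAs were called higher, at 0.70 and 0.74. The study's methods name a Ribo-Zero gold kit for these libraries. The 2 RNAs took 0.424% to 0.882% of the counts of a 3g library and 0.611% to 1.08% of a 16p11.2 one. How much of them the preparation removed was not tested. Of 28 genes for ribosome assembly and rRNA processing 12 were called higher and 3 lower (median 0.11), and of 15 translation factors 6 higher and 4 lower (median 0.06). Of the 17 aminoacyl-tRNA synthetases of mitochondria 6 were called higher and 9 lower (median -0.14). Of the 13 proteins that this ribosome makes, 3 were called higher and 4 lower (median 0.07).

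Markers of other cells are given as measured values, where 62.5% of all genes were called. Of 4 oligodendrocyte markers (Mbp, Mog, Mobp, Mag) 3 were called higher in 16p11.2 wt, and their sum was 6086 to 9548 CPM there and 2756 to 8031 in 3g wt. Of 4 markers of cortical neurons (Slc17a7, Tbr1, Neurod6, Cux2) 3 were called higher, with sums of 739 to 1270.3 and 74.4 to 888 CPM. Of 5 endothelial markers 4 were called lower, with sums of 87.4 to 199 CPM in 16p11.2 wt and 105 to 180 in 3g wt. The top of both 3g ranges of oligodendrocyte and cortical markers was male 17. The part of these differences in the Mrp result was not tested.

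**Figure D3:**
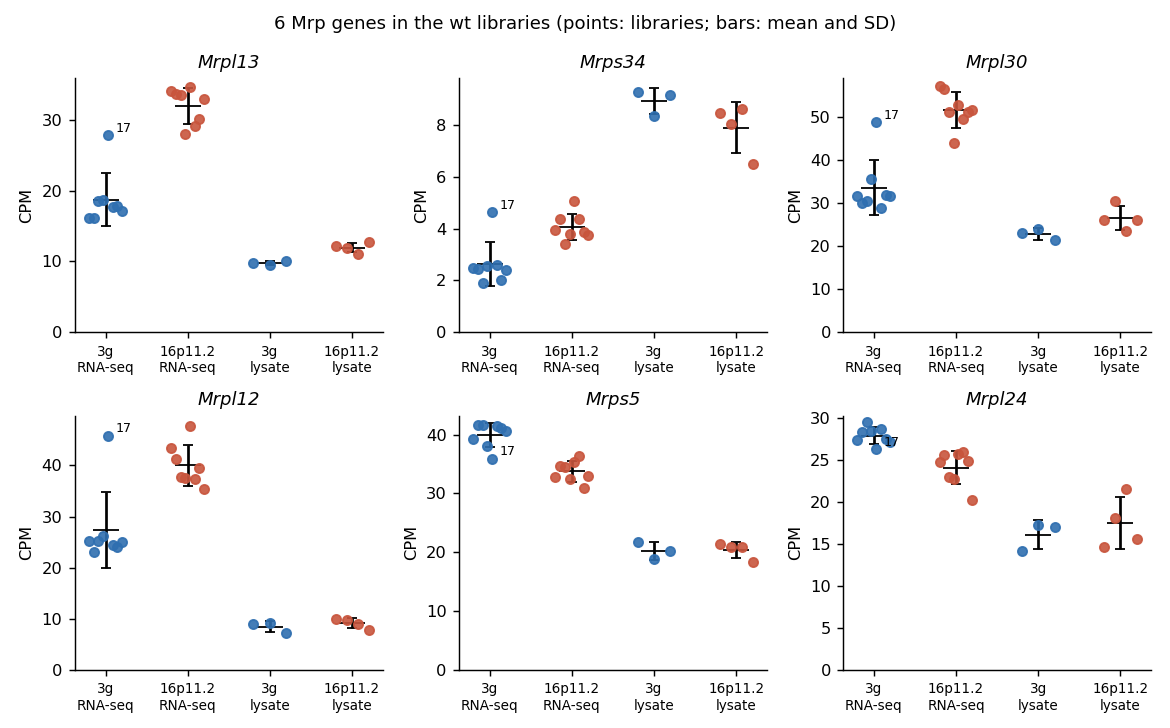
CPM of Mrpl13, Mrps34, Mrpl30, Mrpl12, Mrps5 and Mrpl24 in the wt libraries of each line in RNA-seq and lysate RNA, with points for libraries and bars for mean and SD (n = 8 per line in RNA-seq, 3 and 4 in lysate RNA). For the first 4 genes the 16p11.2 RNA-seq points lie above most 3g points, with male 17 the highest of the 3g points, and in lysate RNA the means of the lines lie closer together.

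In the lysate RNA of other wt males, 3 of the 3g and 4 of the 16p11.2 line, no Mrp gene was called between the lines by edgeR. Of 78 members 6 had an unadjusted p under 0.05, DESeq2 called 0, and 0.0139% of 14417 genes were called in all. The median log2 fold change was 0.03 over the members and 0.11 over the cytosolic ribosomal protein genes. Mrpl13 had 9.80, 9.48 and 10.03 CPM in 3g wt and 12.1, 11.9, 11.1 and 12.7 in 16p11.2 wt, so that the groups did not overlap there. Mrps34 had 9.25, 8.35 and 9.14 CPM in 3g wt and 8.46, 8.02, 8.62 and 6.47 in 16p11.2 wt, with overlapping groups and the 16p11.2 mean on the lower side. The members with the smallest p were Mrpl18 (log2 fold change 0.40, SE 0.142, edgeR adjusted p = 0.342) and Mrpl42 (0.33, SE 0.130, edgeR adjusted p = 0.386), both proteins of the large subunit.

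Whether the line difference itself differed between the data sets was tested as an interaction over the 23 wt libraries of RNA-seq and lysate RNA. The log2 fold change of 16p11.2 over 3g was lower in lysate RNA for 13 of 78 members and higher for none. This share is close to the 16.1% of 16051 genes called in either direction. The share of all genes called lower is not given here. A lower value can mean a smaller difference or one of the other direction. Mrpl13 stayed higher in 16p11.2, as given above. Mrps11 had means of 17.3 CPM in 3g wt and 21.0 in 16p11.2 wt in RNA-seq. In lysate RNA it had 5.87, 5.92 and 5.13 CPM in 3g wt and 4.10, 3.82, 4.82 and 4.78 in 16p11.2 wt. Mrpl53 had no counts in the wt RNA-seq libraries and so no value. Among genes counted in each line of both data sets, 13 of 77 members and 16.4% of 15871 genes were called. The median was -0.25 over these members, with 11 above 0, and -0.39 over the cytosolic ribosomal protein genes. Mrps34 differed most, by -0.79 on the log2 scale (SE 0.225, edgeR adjusted p = 0.0236), followed by Mrpl40 at -0.76 (adjusted p = 0.0182), Mrpl36 at -0.69 (adjusted p = 0.0126) and Mrpl14 at -0.63 (adjusted p = 0.029). The count depended on single libraries. Without RNA-seq library 3g wt male 17 it was 38, 36 of them with a lower log2 fold change in lysate RNA. Without the 3g wt lysate libraries RNA-300, RNA-301 or RNA-318 or the 16p11.2 wt one RNA-505 it was 5, 8, 8 and 6. In males alone no member was called by edgeR (10 at an unadjusted p under 0.05, median -0.17). In males without number 17, 20 were called, all with a lower log2 fold change in lysate RNA. The shares of all genes called in the fits with libraries left out are not given here. The data sets differed in animals, sex (all lysate libraries are from males), preparation, read length and depth, and mitochondrially encoded proteins took 37.7% to 51.8% of the counts in lysate RNA and 4.34% to 6.64% in RNA-seq. Which of these goes with the difference was not tested.

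In footprints 20 members had enough counts to be tested between the lines, and edgeR called none of them. Of these, 3 had an unadjusted p under 0.05, the median log2 fold change was -0.14 (0.03 over 38 cytosolic ribosomal protein genes), and 0.241% of 6633 genes were called. Mrpl33, a very short protein of the large subunit, had 36, 33 and 65 footprint counts in 3g wt and 66, 119, 92 and 87 in 16p11.2 wt. Scaled to CPM, every 16p11.2 animal was above every 3g animal, with a log2 fold change of 1.10 (SE 0.278, edgeR adjusted p = 0.114; exact permutation p = 0.0286, the smallest possible here). DESeq2 called this 1 gene, at an adjusted p of 0.0372, and without RIBO-318 of 3g wt edgeR did too (1.48, adjusted p = 0.0087). Mrpl40, a large subunit protein of mitochondria alone, differed by -2.56 (adjusted p = 0.101). It passed without the 3g wt libraries RIBO-300 (-3.03, adjusted p = 0.000981) or RIBO-301 (-2.97, adjusted p = 0.0424), and came down to -0.72 (adjusted p = 0.69) without RIBO-318. Per lysate RNA no member was called between the lines (5 at an unadjusted p under 0.05 by edgeR, 0 by DESeq2, 0.0132% of 15208 genes called), and the median was -0.13, with Mrpl40 at -2.31 (adjusted p = 0.483) and Mrps7 at 1.09 (adjusted p = 0.51).

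The study asked, among other things, how the striatal transcriptome differs from wt in males and females with the region or 3 of its genes hemideleted. No Mrp gene was called between del/+ and wt in any of the 4 RNA-seq comparisons, by edgeR or by DESeq2, at 4 libraries against 4. In 3g males 1 of 77 members had an unadjusted p under 0.05, and 0% of 19081 genes were called. In 3g females these were 3 members and 0.00526% of 19024 genes, in 16p11.2 males 1 member and 0.106% of 17957 genes, and in 16p11.2 females 3 members and 0.144% of 18067 genes.

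In males of both lines most Mrp genes leaned below wt without passing the test. The median log2 fold change was -0.13 in 3g males, with 13 of 77 members above 0, and -0.13 in 16p11.2 males, with 10 above 0. The cytosolic ribosomal protein genes had a median of -0.24 in both. In 3g females the median was -0.00 (38 members above 0; cytosolic genes -0.11) and in 16p11.2 females 0.01 (42 above 0; cytosolic genes 0.11). Single members spanned -0.31 to 0.08 in 3g males, -0.26 to 0.13 in 3g females, -0.26 to 0.12 in 16p11.2 males and -0.19 to 0.32 in 16p11.2 females.

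The lean in 3g males rested on 1 wt library. Without 3g wt male 17 the median of the Mrp genes was -0.002, with 36 of 77 above 0, and that of the cytosolic genes -0.025. Without 16p11.2 del/+ male 4 the median in 16p11.2 males was -0.047, with 21 above 0, and -0.079 for the cytosolic genes. Without the library labelled 16p11.2 del/+ female 1, the median in 16p11.2 females was 0.052, with 54 members above 0. No member was called in any of these.

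The members with the smallest p show the size of the differences within the lines. Mrps25, a small subunit protein of mitochondria alone, had 31.8, 24.3, 23.02 and 23.6 CPM in 3g wt males and 17.7, 22.5, 21.6 and 22.1 in 3g del/+ males. All del/+ values were below all wt values, the highest of which was that of male 17, and the log2 fold change was -0.26 (SE 0.113, edgeR adjusted p = 0.974; exact permutation p = 0.0286). Mrpl33 differed by -0.19 in the same males (SE 0.092, edgeR adjusted p = 0.974). Without male 17 these were -0.15 for Mrps25 and -0.13 for Mrpl33. In 3g females Mrpl50, a large subunit protein of mitochondria alone, had 24.96, 25.2, 25.1 and 25.5 CPM in wt and 26.8, 26.7, 26.8 and 28.98 in del/+, which did not overlap (0.13, SE 0.042, edgeR adjusted p = 0.334). Mrpl52 differed by -0.26 in 3g females (SE 0.101, edgeR adjusted p = 0.391).

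In 16p11.2 males Mrpl19, the homolog of bacterial L19 at the subunit interface, had 32.1, 32.2, 31.4 and 31.5 CPM in wt and 29.3, 28.1, 27.2 and 22.1 in del/+. Each del/+ value was below each wt value, with number 4 the lowest, and the log2 fold change was -0.25 (SE 0.102, edgeR adjusted p = 0.742; exact permutation p = 0.0286). Mrpl16 differed by -0.25 (SE 0.124, edgeR adjusted p = 0.742). Without number 4 these were -0.17 for Mrpl19 and -0.16 for Mrpl16. In 16p11.2 females Mrps12, on the chromosome of the deletion, had 24.7, 19.5, 21.0 and 19.4 CPM in wt and 26.5, 24.7, 25.8 and 28.3 in del/+. These groups met without crossing (0.32, SE 0.092, edgeR adjusted p = 0.849). Mrpl48, also on chromosome 7, differed by 0.27 in 16p11.2 females (SE 0.094, edgeR adjusted p = 0.998). Without the library labelled female 1 these were 0.31 for Mrps12 and 0.33 for Mrpl48, with edgeR adjusted p of 0.754 and 0.609.

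The genotype effect was also compared between sexes, as an interaction. No Mrp gene was called in either line, with 0% of 19830 genes called in the 3g line and 0% of 18870 in the 16p11.2 line, and DESeq2 called none of the members. The effect was more positive in females for 64 of 77 members in the 3g line (median 0.12, cytosolic genes 0.14, 2 members at an unadjusted p under 0.05 by edgeR). In the 16p11.2 line it was also 64 of 77 (median 0.17, cytosolic genes 0.35, 1 member at an unadjusted p under 0.05 by edgeR). Without 3g wt male 17 the 3g median was -0.001, with 38 members above 0. Without 16p11.2 del/+ male 4 the 16p11.2 median was 0.08, with 58 above 0, and without the library labelled del/+ female 1 it was 0.21, with 66 above 0. The smallest p belonged to Mrpl33 and Mrpl49 in the 3g line (0.24 and 0.26, adjusted p = 0.901 for both) and to Mrps12 and Mrps23 in the 16p11.2 line (0.42 and 0.27, adjusted p = 0.835 for both). Without 3g wt male 17 the former were 0.17 and 0.15, and the latter were 0.38 and 0.19 without 16p11.2 del/+ male 4 and 0.42 and 0.28 without the library labelled female 1.

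**Figure D4:**
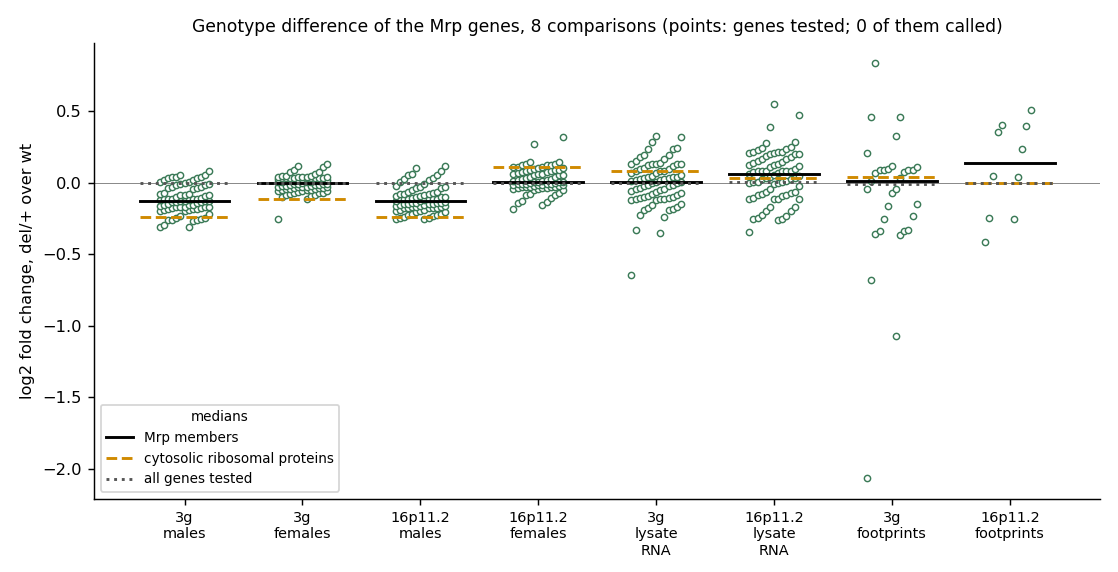
Log2 fold change of del/+ over wt for the Mrp genes tested in the 4 RNA-seq, 2 lysate RNA and 2 footprint comparisons, with 1 point per gene and lines at the medians of the Mrp genes (solid), the cytosolic ribosomal protein genes (dashed) and all genes (dotted). No Mrp gene passed an adjusted p under 0.05, the Mrp medians are -0.13 in males of both lines in RNA-seq, and the widest spread is in footprints, with Mrpl40 at -2.07.

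In lysate RNA of males no Mrp gene was called between del/+ and wt by edgeR or DESeq2. In the 3g line, 3 animals against 3, 5 of 78 members had an unadjusted p under 0.05 and 0.0209% of 14378 genes were called, with a median of 0.01 (cytosolic genes 0.08). In the 16p11.2 line, 3 against 4, these were 6 members and 0.133% of 14330 genes, with a median of 0.06 (cytosolic genes 0.03). In the 3g line Mrpl13 had 9.80, 9.48 and 10.03 CPM in wt and 12.8, 11.8 and 12.2 in del/+, without overlap (log2 fold change 0.32, SE 0.127, edgeR adjusted p = 0.94; exact permutation p = 0.1, the smallest that 3 against 3 allow). Mrpl4, the homolog of bacterial L4, differed by -0.33 (SE 0.143, edgeR adjusted p = 0.94).

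In the 16p11.2 lysate RNA, 8 of 78 members were higher in every del/+ than in every wt animal and none lower in every one, against 2.96% of all genes higher in this way. Mrps36, the member outside the ribosome and with annotated pseudogene copies, had 11.5, 11.5, 11.8 and 11.6 CPM in wt and 16.4, 14.7 and 14.1 in del/+. These values left a gap between the groups, with a log2 fold change of 0.39 (SE 0.115, edgeR adjusted p = 0.99; exact permutation p = 0.0286). Mrpl14, the homolog of bacterial L14 at the subunit interface, had 3.15, 3.16, 2.77 and 2.58 CPM in wt and 4.51, 4.31 and 3.92 in del/+ (0.55, SE 0.201, edgeR adjusted p = 0.99).

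Footprints could be compared for fewer members, 31 in the 3g and 10 in the 16p11.2 line, and edgeR called none between del/+ and wt, nor did DESeq2. At an unadjusted p under 0.05 there were 2 members in the 3g and 0 in the 16p11.2 line, and 0.0132% of 7553 and 0.117% of 5964 genes were called. The medians were 0.01 and 0.14. Mrpl40 had 9, 14 and 100 counts in 3g wt and 9, 28 and 9 in 3g del/+, so that the difference of -2.07 on the log2 scale (adjusted p = 0.414) rested on the wt library RIBO-318, without which it was -0.23. Without the wt library RIBO-300 it passed (-2.52, adjusted p = 0.00964). The 100 counts of this gene in 1 animal stood beside 109 counts in its lysate RNA, a number like those of the other animals. Mrpl38, a large subunit protein related to phosphatidylethanolamine-binding proteins, differed by -1.07 (SE 0.427, edgeR adjusted p = 0.527). In the 16p11.2 line Mrpl33 differed by 0.35 (adjusted p = 0.89) and Mrpl37 by 0.51 (adjusted p = 0.927).

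Footprints per RNA, tested by an interaction term between assay and genotype, called no Mrp gene either, by edgeR or DESeq2. In the 3g line 4 of 78 members had an unadjusted p under 0.05, 0% of 15137 genes were called and the median was 0.08. In the 16p11.2 line 1 member did, 0.00664% of 15071 genes were called and the median was -0.12. Mrps18c had 1, 2 and 4 footprint counts in 3g wt and 5, 9 and 18 in del/+, with an interaction of 1.77 on the log2 scale (SE 0.636, edgeR adjusted p = 0.525). Mrpl40 had an interaction of -1.93 (adjusted p = 0.5264), and 0.01 without animal RIBO-318. In the 16p11.2 line Mrps35 had 5, 4, 13 and 12 counts in wt and 0, 4 and 4 in del/+ (-1.40, adjusted p = 0.764), and Mrpl44, an RNase III-like protein of the large subunit, differed by -1.28 (adjusted p = 0.82).

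The last comparison asked how many footprints the Mrp genes had for their RNA, relative to the other genes, within the wt animals of each line. The Mrp genes sat in the middle of all genes, whereas the cytosolic ribosomal protein genes sat far below. In 3g wt 12 of 78 members were called higher in footprints and 12 lower, at a median of 0.05, where 44.3% of 13963 genes were called, 20.6% higher and 23.7% lower. In 16p11.2 wt 13 were called higher and 11 lower, at a median of -0.09, where 46.6% of 13682 genes were called, 21.4% higher and 25.2% lower. The cytosolic genes had medians of -2.06 and -2.17, with 72 and 78 of 79 called lower and none higher. Proteins encoded in mitochondrial DNA, which the mitochondrial ribosome reads, had medians of -1.75 in 3g and -0.37 in 16p11.2 wt, and their share of the footprint counts ran from 10.4% to 41.3% between libraries.

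Summed over the members, log2 footprints per RNA lay between -0.09 and 0.10 in all 13 animals, del/+ and wt. The same sum over the cytosolic genes lay between -2.26 and -1.87, so the sets did not overlap in any animal. The zero of this scale depends on the normalization. With library totals in place of TMM the Mrp sums were 0.11 to 0.83 and the cytosolic ones -1.86 to -1.08, still apart in all animals, and of the members called in 3g wt 26 were then higher and 2 lower, in 16p11.2 wt 15 higher and 5 lower, while the medians of all genes moved to 0.61 and 0.20. With the animal as a block, which joins the libraries made from 1 lysate, 20 members were called in 3g and 22 in 16p11.2 wt. Leaving out the 3g wt animal of RIBO-300, RIBO-301 or RIBO-318 lowered the 3g count to 13, 13 and 10. Leaving out the 16p11.2 wt animal of RIBO-517 lowered the 16p11.2 count to 15. The shares of all genes called with library totals, with the block or with an animal left out are not given here, so these counts have no background beside them.

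Cytosolic ribosomal protein RNAs are known to begin with a C followed by a run of pyrimidines, through which their translation is regulated, and the start windows of the members with the most and fewest footprints per RNA are printed here beside the lowest cytosolic genes that hold such a run. Each is 30 bases long, from 15 before the RefSeq start of GRCm38.p6, with the start base and the next 4 in capitals. The first 4 had the highest and the second 4 the lowest values among the members.
Mrpl40: cccgcctctcggaatCCCAGacccgcgagt
Mrps7: tgtgggcagccctccGAGGTcctgacagcg
Mrpl39: aaggaccgggacgccGAGCTaccttggcta
Mrpl14: ctcacggagaaccccTGGCGcgcaggcgca
Mrpl50: tggctgagtcgggcaCGTCTggcgctcttg
Mrps25: gaagtgcctcccaagATTCCcggagccgcg
Mrps36: ttatagctcctcagtGACATcacacaggct
Mrpl32: ctcagcccgcgtcccGCTCTgtcttgagaa
Rps27: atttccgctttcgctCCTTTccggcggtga
Rpl15: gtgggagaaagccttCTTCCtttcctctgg
Rpl35: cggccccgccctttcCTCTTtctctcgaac
Rpl14: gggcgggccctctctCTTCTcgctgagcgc
A C at the start followed by 4 pyrimidines was present in 0 of 75 Mrp windows, in 14 of 68 cytosolic ones (20.6%) and in 2.51% of all windows. RefSeq starts can lie some bases from those used in the striatum, so the count describes the annotation.

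Among the members with the most footprints per RNA, Mrps7, the head protein of the small subunit, had 16, 7 and 12 footprint counts in 3g wt and 22, 35, 19 and 19 in 16p11.2 wt. Its ratio was 1.11 on the log2 scale in 3g (SE 0.323, edgeR adjusted p = 0.0131) and 2.27 in 16p11.2 wt (SE 0.247, edgeR adjusted p = 3.06e-07). Mrpl39, related to threonyl-tRNA synthetases, had 9, 7 and 7 and 3, 5, 8 and 12 counts, with ratios of 1.64 (adjusted p = 0.00336) and 1.63 (adjusted p = 0.000999). All 7 animals were above 0 for both genes.

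Mrpl14 had 5, 7 and 3 and 3, 5, 5 and 10 counts, with ratios of 1.22 (adjusted p = 0.0516) and 1.80 (adjusted p = 0.000958). Mrpl40 led the order through 1 animal. Its ratio per animal was 1.08, 1.32 and 4.67 in 3g wt and 1.37, 0.76, 0.80 and 0.88 in 16p11.2 wt, the fit gave 3.28 in 3g (adjusted p = 0.00048) and 1.35 without animal RIBO-318 (adjusted p = 0.0395), and in 16p11.2 wt it gave 1.03 (adjusted p = 0.0172) and 0.99 with the animal as a block (adjusted p = 0.0518).

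Among the members with the fewest, Mrpl50 had 0, 6 and 3 footprint counts in 3g wt, beside 435, 339 and 324 in lysate RNA, and 3, 8, 2 and 5 in 16p11.2 wt, beside 383, 297, 367 and 328. Its ratios were -2.02 (SE 0.480, edgeR adjusted p = 0.00402) and -1.42 (SE 0.320, edgeR adjusted p = 0.00112). Mrps25 had 3, 2 and 7 and 3, 2, 8 and 6 footprint counts, and all 7 animals lay below 0, between -2.85 and -0.95. Its ratios were -1.70 (adjusted p = 0.00251) and -1.33 (adjusted p = 0.00179). Mrpl32, whose maturation by a membrane protease is a known step in the assembly of this ribosome, had ratios of -1.75 (adjusted p = 0.0202) and -0.98 (adjusted p = 0.0315). Mrps36 had -0.85 (adjusted p = 0.116) and -1.89 (adjusted p = 0.00219). At counts this low a single footprint moves a ratio visibly, and values of 0 give no ratio for that animal.

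Of the 24 members called in each line, 9 were higher and 4 lower in both and none changed direction, which is 54.2% of either set, beside 78.3% of the 3g calls over all genes tested in both. By role, the small subunit had 4 members called higher and 4 lower in 3g and 4 and 1 in 16p11.2 wt, and the large subunit 8 and 8, and 9 and 9. Members found in mitochondria alone were called higher 8 times and lower 4 times in 3g, and 7 and 6 times in 16p11.2 wt. Of 5 ribosome proteins under other symbols 3 were called higher in 3g and 2 in 16p11.2 wt, with none lower. Of 27 assembly and rRNA processing genes 2 were called higher and 1 lower in 3g, and 6 and 3 in 16p11.2 wt.

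**Figure D5:**
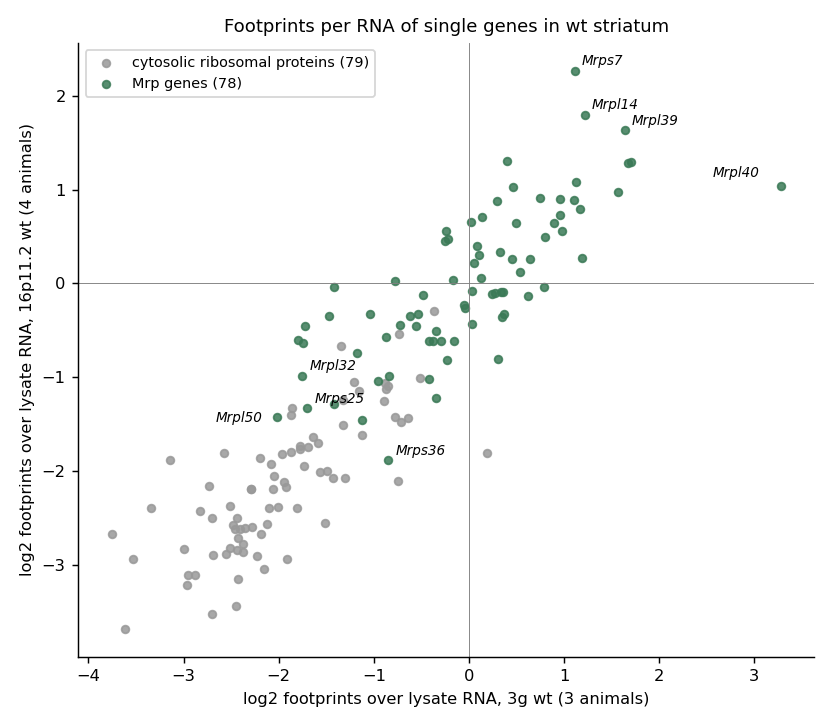
Log2 footprints over lysate RNA in wt animals of the 3g line (x axis, 3 animals) and the 16p11.2 line (y axis, 4 animals) for the Mrp genes and the cytosolic ribosomal protein genes. The Mrp genes spread around 0 in both lines, with medians of 0.05 and -0.09, and the cytosolic genes lie lower, with medians of -2.06 and -2.17, and overlap the lowest Mrp genes.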

How the data were processed

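The authors deposited whole-number counts of reads per gene and library, in 1 set of tables for RNA-seq and 1 for footprints and lysate RNA, and these were used as deposited. Per the labels, the submitters' processing notes name HTSeq and mm10 for RNA-seq and Bowtie2 and mm39 for footprints and lysate RNA, and the study's methods name the bcbio-nextgen pipeline for RNA-seq. Other settings and versions were not given in the sources used here. Counts cannot be compared between genes per length, because no exon lengths were used here, so the part of the naming rule that ranks levels per length was not applied. The number of columns from samples of another series was 0.

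Groups came from the labels. Tests were fitted on all genes that passed edgeR's filter on low counts, with TMM normalization and the quasi-likelihood test of edgeR 4.0.16 (R 4.3.3, limma 3.58.1), and adjusted over all of them by Benjamini-Hochberg with a threshold of 0.05. Genotype was tested within line and sex, the line between wt libraries with sex as a covariate in RNA-seq, and footprints per RNA as an interaction with assay. Single genes were also tested by exact permutation of libraries, 2-sided. CPM were computed with TMM, and log2 values per library used a prior count of 1. The scripts were tested on simulated counts. Some genes of the marker lists are not reported here, and the lists' counts and sums leave them out.

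Named genes were, in each comparison, the 4 called members with the largest change, or the 2 with the smallest p where none was called, the 4 highest and 4 lowest in footprints per RNA, and a set of members with known roles. Mrps27, the members called lower between the lines, Mrps18b and Mrps18c in RNA-seq, and Mrpl13 and Mrps34 in lysate RNA were added after their values were seen. The members and lists were chosen with earlier results of these data known, and the test of the line difference between data sets was also added after seeing the data. Alternatives were RLE normalization, no filter, DESeq2 1.42.0, library totals, the replicate block, other sets of libraries, and each library left out in turn.

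Footprint and lysate RNA libraries of 1 number come from the same animal. Ratios per animal and the fits with the animal as a block used this pairing, and the main fits did not. Replicate numbers of the 16p11.2 RNA-seq libraries did not pair them (correlation of deviations between -0.26 and 0.10), and the 3g RNA-seq groups share no numbers. In each group libraries differed by more than sampling noise. The labels do not say that RNA-seq libraries of a group come from separate mice, so their p-values measure the spread between libraries, which may be technical in part.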

Additional observations from a re-analysis of the deposited data

Results flagged for a closer look

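In groups of 4 to 10 libraries the highest or lowest value was set against its group's range by Dixon's criterion at 95%. Chance passes it in about 1 of 20 independent groups, and here 7 of 25 values passed. The genes among them were picked by their line difference in these same libraries, and several values share 1 library. The values are therefore not independent, and their number cannot be read against that rate. The median position of the Mrp genes did so in 2 RNA-seq libraries, 3g wt male 17 at 0.23 and 16p11.2 del/+ male 4 at -0.292. Male 17 was also the library with 27.8 CPM of Mrpl13, 4.63 of Mrps34, 48.7 of Mrpl30 and 45.8 of Mrpl12 among the 3g wt libraries. Its Sez6l2 level was that of a wt library (339 CPM). On the other side 16p11.2 del/+ male 4 had levels of a deletion library for both genes (162 and 88.8 CPM). The position of the cytosolic ribosomal protein genes was 0.396 in the former and -0.589 in the latter. In 16p11.2 wt male 3 Mrps18b was at 5.97 CPM, the lowest of its group.

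The line difference itself differed between lysate RNA and RNA-seq for 13 Mrp genes by the interaction test of edgeR. All of them had a lower fold change between the lines in lysate RNA. A lower value can mean a smaller difference or one of the other direction, as Mrps11 shows above. The share of members called is close to the 16.1% of all genes called in either direction. The share of all genes called lower is not given here. The count ran from 5 to 38 with 1 library left out.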

How the results depend on the processing

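Of 71 pairs of a named gene and a comparison, 36 kept direction and side of the threshold under every alternative run for them and 3 reversed in at least 1. The interaction of genotype and assay for Mrpl40 in the 3g line was 0.0119 without animal RIBO-318 and ranged down to -2.53 with another animal left out, and with library totals in place of TMM Mrpl3 was at -0.0365 and Mrps2 at -0.0303 between the lines in RNA-seq. With library totals the median of all genes between the lines moved to -0.12, and that of the members to 0.21. Of the members 52 were then called higher and 6 lower, and the share of all genes called is not given here. The count of members called between the lines in RNA-seq was 0 in males only. In 3g footprints the genotype count was 1 without a filter and 0 to 1 with a library left out. Between the lines in footprints it was 2 without a filter, 1 by DESeq2 and 0 to 1 with a library left out. In footprints against RNA it was 10 to 13 in 3g and 15 to 21 in 16p11.2 wt with an animal left out. Fewer animals enter those fits, and their shares of all genes called are not given here. For the line difference between data sets it was 5 to 38 with a library left out, 0 in males only and 20 in males without 3g wt male 17. Other causes were not tested.

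With the replicate number as a block in the 16p11.2 RNA-seq, which its numbers do not pair, 0 members were called in males and 0 in females, and the medians were -0.147 and 0.005. With the animal as a block in footprints per RNA 0 members were called for genotype in either line, and the block changed no other call than those given with it. Library totals moved the summed footprints per RNA of the members, as given above. The depth of the footprint libraries, with a median of 4 to 13 counts per member, limits what could be detected for single members.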
